A study of Homo sapiens with 8 samples.

Results

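Neurotransmitter receptor genes were followed in IGR-N91, a human neuroblastoma (NB) line cultured as aggregates in hanging drops. Members were taken by symbol among the protein-coding genes of the count table: the ionotropic glutamate receptor genes (GRIA, GRIK, GRID and GRIN), the metabotropic ones (GRM), the GABA-A and GABA-B (GABR, GABBR), glycine (GLRA, GLRB), nicotinic and muscarinic acetylcholine (CHRN, CHRM), serotonin (HTR), dopamine (DRD) and adrenergic (ADRA, ADRB) receptor genes. The rule gave 103 members in 14 families, of 60676 genes in the table and 19837 protein-coding ones, and used no measured value.

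Aggregates were kept in control medium or in medium conditioned by sympathetic ganglia of E8 chick embryos (E8-cSGcm), by dorsal root ganglia of E8 chick embryos (E8-cDRGcm) or by sympathetic ganglia of E15.5 mouse embryos (E15.5-mSGcm). They were collected after 20 h by the labels, and each of the 4 groups has 2 libraries of total RNA. Conditioned medium was added rather than ganglia. By the study's methods the ganglia were held in agarose while they conditioned the medium, which was then collected and kept frozen. The study states no filtering or other step that removed ganglion cells from the collected medium. All libraries come from 1 cell line. The study describes the libraries as duplicates of each condition and its measurements as taken from distinct samples, without saying whether the duplicates were separate cultures, so p-values measure the spread between these libraries, which may be technical.

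Library totals ran from 7930765 to 15060744 counts, with the E15.5-mSGcm libraries the smallest. Levels are given as CPM, counts divided by the library total times its TMM factor and multiplied by 1000000, and 3 counts, taken as the floor of what a library can show, correspond to 0.197 to 0.384 CPM, for counting error only. Of 12 markers of noradrenergic neuroblastoma, chosen to check the labelled cell type, 12 passed the filter on low counts, with a summed level of 6926 to 6998 CPM in control medium. The Schwann cell marker SOX10 was at 0 in all 8 libraries, and the leukocyte list summed to at most 1.15 CPM. In E15.5-mSGcm, 4 of 7 fibroblast and mesenchymal markers rose and 1 fell, and the list summed to 476 to 486 CPM against 416 to 428 CPM in control medium. In bulk RNA, fewer cells with a transcript and less transcript per cell cannot be told apart.

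Neurotransmitter receptors fall into 2 structural classes. Ligand-gated channels, assembled from several subunits around a pore, pass ions within milliseconds of binding acetylcholine, glutamate, GABA, glycine or serotonin; the subunits present set which ions pass and how the channel gates. Metabotropic receptors are built of chains that cross the membrane many times and act through G proteins. Neuroblastoma arises from the sympathoadrenal lineage, whose mature sympathetic neurons receive their fast input through nicotinic receptors built on the α3 subunit together with β4 and α5.

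At least 1 read was counted for 84 members, and 19 were listed at 0 in every library, among them GRIN2A, GRM5, GABBR1, CHRNB1, HTR1A and 4 of the 5 dopamine receptor genes. Whether a 0 means no transcript or reads not assigned to the gene was not tested. The accessory genes LY6E, NLGN2 and PLCL2 were also at 0 throughout. After the filter on low counts 43 members were tested. Of these, 31 exceeded the filter level of 0.757 CPM in both libraries of all 4 groups, 7 did so in 2 or 3 groups, and 4, among them ADRA1D, GRM4 and CHRM1, in 1 group only, so that these 4 passed through the group where they are high. ADRB1 was tested without reaching that level in both libraries of any group. The 41 members with counts that were not tested held at most 46 reads over the 8 libraries, and 28 of them at most 10.

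Scaled to exonic length (CPM per kb), the 4 highest members were all nicotinic: CHRNA3 at 56.1, CHRNB2 at 24.3, CHRNB4 at 11.9 and CHRNA5 at 10.8, as means over the 8 libraries. Among the 10 highest were also the AMPA receptor subunit gene GRIA4 (9.83), the kainate receptor genes GRIK5 (9.33) and GRIK2 (5.82), the NMDA receptor gene GRIN3A (5.28) and the GABA-A receptor gene GABRB2 (3.99). Nicotinic, GABA-A and kainate genes therefore held most of the receptor reads. Of nicotinic genes, 14 of 16 had counts but only 4 were tested. Serotonin genes had counts in 13 of 17 cases with 4 tested, and GABA-A genes in 17 of 19 with 7 tested. All 5 muscarinic genes were tested.

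**Figure D1:**
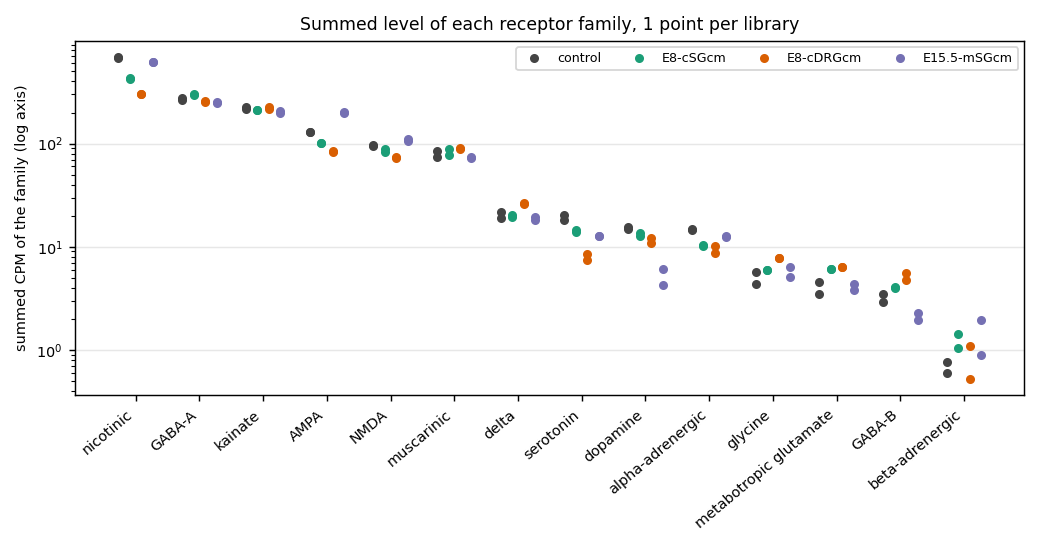
Summed CPM of each receptor family (log axis), with 1 point per library and 4 colours for the media. The nicotinic family lies highest in control medium, at 678 and 693 CPM, and lower in both chick media, at 436 and 426 CPM in E8-cSGcm and 301 and 303 CPM in E8-cDRGcm.

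Each medium was compared with control medium by edgeR's quasi-likelihood test, and a gene was called where it differed at least 1.5-fold with a Benjamini-Hochberg adjusted p under 0.05. In E8-cSGcm 4 members rose and 6 fell, which is 23.3% of the 43 tested where 8.59% of all 16680 genes were called. In E8-cDRGcm 7 rose and 10 fell (39.5%, against 20.7% of all genes). In E15.5-mSGcm 5 rose and 8 fell (30.2%, against 13.9% of all genes). These counts include ADRA1D, GRM4 and CHRM1, and those between the media below include ADRA1D and GRM4. Each exceeded the filter level in both libraries of 1 group only, so these calls are not independent of the filter. By direction, 4.73% of all genes rose and 3.86% fell in E8-cSGcm, 9.81% and 10.9% in E8-cDRGcm, and 6.65% and 7.27% in E15.5-mSGcm. The median log2 fold change of the 43 members was -0.00, -0.11 and -0.10 in these 3 media, beside 0.01, 0.01 and -0.02 over all genes. Without control replicate 2 the members that rose in E8-cSGcm numbered 2, and without E15.5-mSGcm replicate 2 those that rose in that medium numbered 3. By DESeq2 1 member rose in E8-cSGcm and 3 in E15.5-mSGcm. The calls it did not make (adjusted p 0.0582 to 0.136) were GABRA2 and GRIK3 in E8-cSGcm, CHRM1, GABBR2, GRM4 and HTR6 in E8-cDRGcm, and ADRA2A, GABRA4, GRID1 and GRM8 in E15.5-mSGcm, and it gave no adjusted p for GRM4 and CHRM1 in E8-cSGcm.

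Libraries of the 2 groups did not overlap in 18 members that were higher and 14 lower in E8-cSGcm, 16 and 22 in E8-cDRGcm, and 9 and 22 in E15.5-mSGcm, where 63.6%, 73.5% and 68.3% of all tested genes did not overlap.

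GRIK3 and HTR2A were called, lower, in all 3 media, in comparisons that share the control libraries. Of the tested members, 18 were called in none of the 3.

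**Figure D2:**
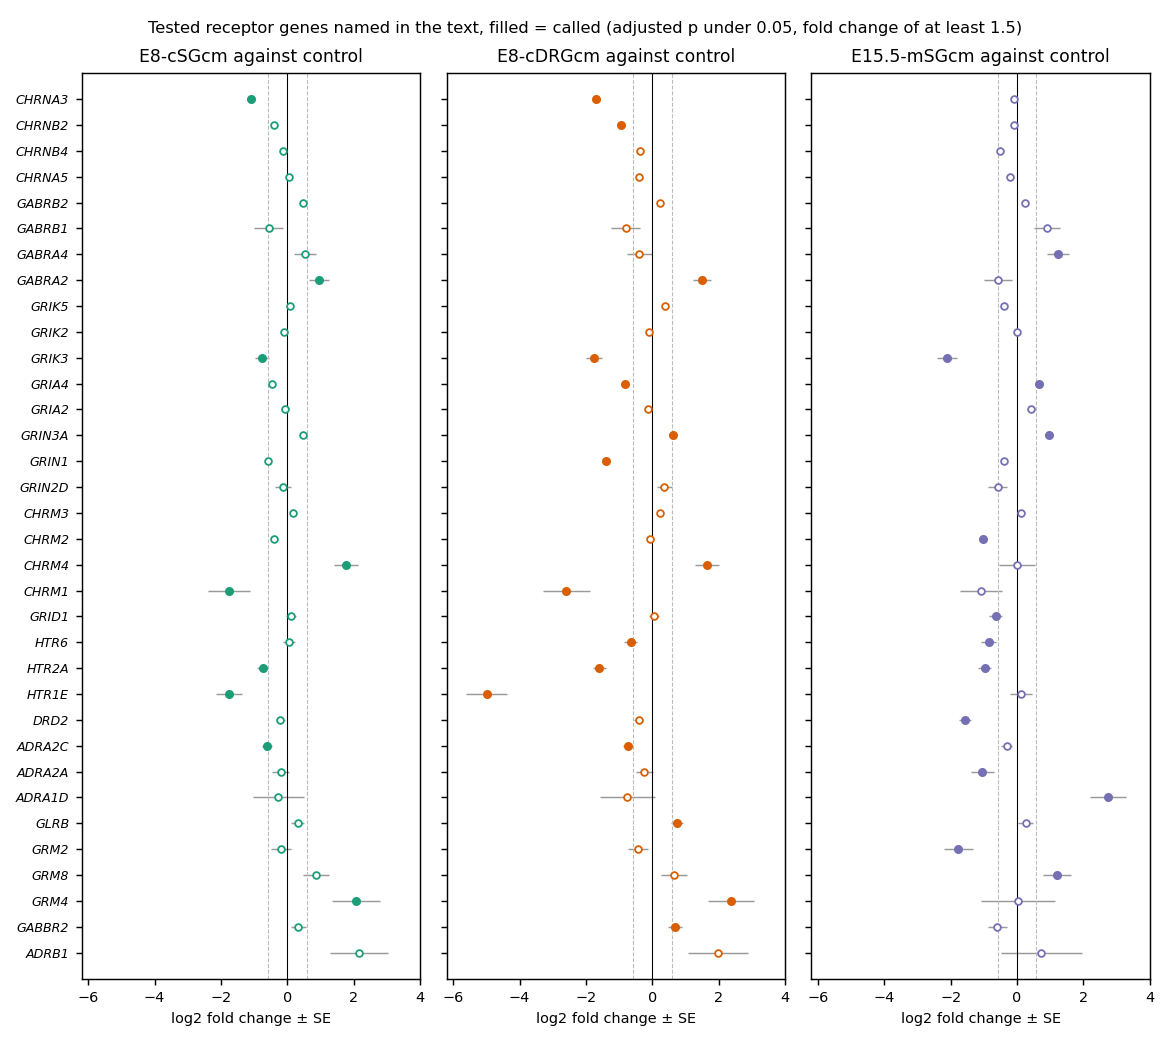
Log2 fold change of 34 of the 43 tested receptor genes, those named in the text, against control medium (horizontal axis, bars are the standard error of the fit), 1 panel per conditioned medium, with genes grouped by family. Filled points are called genes, dashed lines mark the 1.5-fold limit, and HTR1E in E8-cDRGcm stands farthest to the left with 1 read in each of the 2 libraries.

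The promoters of 4 genes that the results below turn on are shown for orientation: CHRNA3 and CHRNB4, neighbours in 1 gene cluster, and CHRNB2 and GRIK3, which fell in E8-cDRGcm as CHRNA3 did. Sequences are from RefSeq on GRCh38.p14 and cover the 250 bases upstream of the start that the promoter table gives for each gene, read 5′ to 3′ on the gene's strand. For CHRNB4 that start lies inside the span annotated for the gene, which begins farther upstream. Capitals mark GGGCGG or its reverse complement CCGCCC, the core of the GC box bound by Sp1-type factors.
CHRNA3, chr15:78620997-78621246, minus strand: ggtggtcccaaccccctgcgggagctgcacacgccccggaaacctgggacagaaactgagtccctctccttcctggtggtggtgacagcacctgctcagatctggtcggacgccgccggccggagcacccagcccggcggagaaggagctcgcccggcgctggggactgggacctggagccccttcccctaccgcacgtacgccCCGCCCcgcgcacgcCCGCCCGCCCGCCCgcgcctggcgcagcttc
CHRNB4, chr15:78641211-78641460, minus strand: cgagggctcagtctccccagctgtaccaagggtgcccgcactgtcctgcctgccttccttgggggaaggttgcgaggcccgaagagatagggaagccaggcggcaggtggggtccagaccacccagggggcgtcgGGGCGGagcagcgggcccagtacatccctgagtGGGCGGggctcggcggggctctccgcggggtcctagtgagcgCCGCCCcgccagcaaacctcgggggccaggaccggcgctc
CHRNB2, chr1:154567528-154567777, plus strand: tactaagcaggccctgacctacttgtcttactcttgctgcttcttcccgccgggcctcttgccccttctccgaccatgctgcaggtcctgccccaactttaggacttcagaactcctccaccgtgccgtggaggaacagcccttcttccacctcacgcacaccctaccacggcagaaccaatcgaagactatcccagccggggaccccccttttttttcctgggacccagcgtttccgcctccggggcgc
GRIK3, chr1:37034516-37034765, minus strand: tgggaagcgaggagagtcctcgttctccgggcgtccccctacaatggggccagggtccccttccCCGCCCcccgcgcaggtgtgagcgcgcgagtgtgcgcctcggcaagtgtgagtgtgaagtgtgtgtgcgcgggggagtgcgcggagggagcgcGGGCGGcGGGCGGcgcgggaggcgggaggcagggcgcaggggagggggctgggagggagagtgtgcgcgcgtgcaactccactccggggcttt
GGGCGG in either orientation occurred 4 times in the CHRNA3 window, 3 times in those of CHRNB4 and GRIK3 and in none for CHRNB2, and 42.6% of 35114 promoter windows of the same length hold it. The E-box letters CANNTG, searched in the same way and free to overlap the other motif, occurred 1, 2, 0 and 2 times in the windows of CHRNA3, CHRNB4, CHRNB2 and GRIK3, beside 61.8% of all windows with a match. The letters TGANTCA were in none of the 4 windows and in 6.57% of all. Matching letters are a description and not evidence of binding. The GC content was 73.6%, 72.4%, 60.4% and 73.6% in the same order.

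Nicotinic receptors are pentamers, and α3 and β4, with α5 as an accessory subunit, form the ganglionic type, whereas β2 is the partner subunit most common in the brain. CHRNA3, the gene of the α3 subunit (ENSG00000080644), was counted at 388 and 400.1 CPM in control medium, 186 and 185 CPM in E8-cSGcm, 125 and 119 CPM in E8-cDRGcm, and 368 and 366 CPM in E15.5-mSGcm. It fell 2.12-fold in E8-cSGcm (log2 fold change -1.09, SE 0.0489, adjusted p = 1.22e-19) and 3.24-fold in E8-cDRGcm (-1.69, SE 0.0505, adjusted p = 8.22e-26). In E15.5-mSGcm the value was -0.10 (SE 0.0481, adjusted p = 0.0888). Libraries of both chick media lay well below the control libraries, while those of E15.5-mSGcm lay slightly under them, and none of the 3 groups overlapped with control. CHRNA3 was lower in E8-cDRGcm than in E8-cSGcm by 0.61 on the log2 scale (log2 fold change -0.61, adjusted p = 1.19e-11), a call lost without E8-cDRGcm replicate 2, where it was -0.57 (adjusted p = 7.62e-09), below the 1.5-fold limit. It made up 25.1% and 25.3% of all receptor counts in the control libraries, 14.3% and 14.6% in E8-cSGcm, 11.3% and 10.8% in E8-cDRGcm, and 24.3% and 24.2% in E15.5-mSGcm.

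CHRNB2, the β2 subunit gene, stood at 176 and 180.1 CPM in control medium, 140.0 and 132 CPM in E8-cSGcm, 90.4 and 95.9 CPM in E8-cDRGcm, and 167 and 164 CPM in E15.5-mSGcm. It fell in E8-cDRGcm (log2 fold change -0.94, SE 0.0552, adjusted p = 7.35e-17). In E8-cSGcm the difference of -0.39 (adjusted p = 3.3e-07) was under the 1.5-fold limit, and in E15.5-mSGcm it was -0.11 (adjusted p = 0.122). CHRNB4 and CHRNA5, the β4 and α5 subunit genes, were called in no comparison. CHRNB4 was counted at 71.4 and 68.3 CPM in control medium, 64.8 and 63.7 CPM in E8-cSGcm, 53.2 and 55.4 CPM in E8-cDRGcm, and 46.4 and 50.3 CPM in E15.5-mSGcm, so its lowest libraries were those of the mouse medium, where its log2 fold change was -0.53 (adjusted p = 3.44e-07). CHRNA5 was at 41.4 and 43.8, 45.1 and 44, 32.2 and 32.0, and 38.4 and 35.8 CPM in the same order of media.

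**Figure D3:**
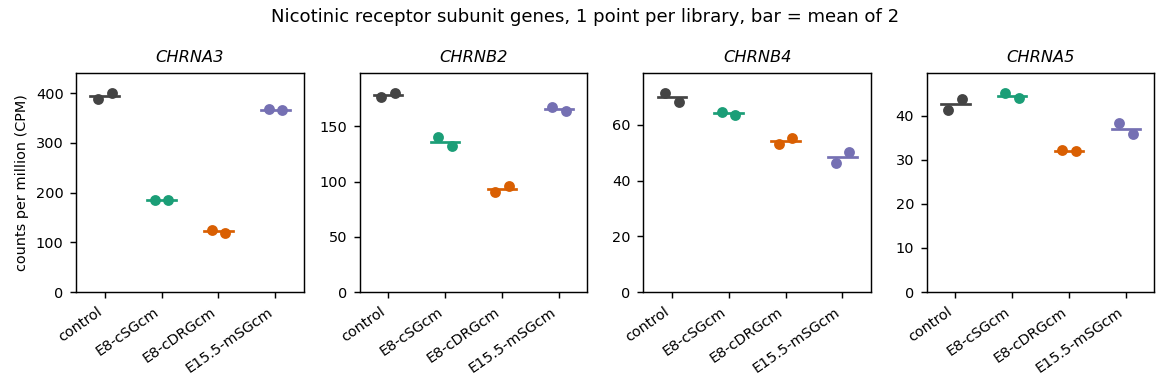
CPM of the 4 tested nicotinic receptor genes in each library (points) with the mean of the 2 libraries (bar), for control medium, E8-cSGcm, E8-cDRGcm and E15.5-mSGcm. CHRNA3 lies near 186 CPM and 122 CPM in the chick media and near 367 CPM in the mouse medium, while CHRNB4 is lowest in the mouse medium at 48.3 CPM.

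CHRNA5, CHRNA3 and CHRNB4 lie next to each other on chromosome 15 (GRCh38.p14: CHRNA5 78565520 to 78595269, CHRNA3 78593052 to 78620996, CHRNB4 78624111 to 78661641). CHRNA5 and CHRNA3 are on opposite strands and their ends overlap, and the strand option of the counting is not given in the sources used here, so reads from the shared stretch are uncertain. The same holds for exons of CHRNB2, CHRNB4, CHRM1, CHRM3, GABRA2, GRID1 and GRM8 that overlap noncoding genes on the opposite strand. It also holds for GABBR2, whose exons overlap a pseudogene there. On the same strand, exons of GABRA2 overlap a noncoding gene and those of GRIA2 and GRIA4 overlap microRNA genes. Reads from these stretches are uncertain under any strand option. Counted per CHRNB4 read, CHRNA3 gave 5.44 and 5.86 in control medium, 2.87 and 2.91 in E8-cSGcm, 2.34 and 2.15 in E8-cDRGcm, and 7.93 and 7.27 in E15.5-mSGcm. This count was thus lower than in control medium in both chick media and higher in the mouse medium. The noradrenergic marker list also moved with the media: 0 of its 12 genes rose in any medium, and 4 fell in E8-cSGcm, 9 in E8-cDRGcm and 6 in E15.5-mSGcm. Its summed level was 4827 to 5114 CPM in E8-cSGcm, 3809 to 3919 CPM in E8-cDRGcm and 4185 to 4364 CPM in E15.5-mSGcm, where CHRNA3 was not called; the part of that change in the nicotinic values was not tested.

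Ionotropic glutamate receptors are tetramers of the AMPA, kainate, NMDA and delta classes. Among AMPA receptor genes GRIA4 carried most of the reads. GRIA4, which codes for an AMPA receptor channel subunit, was at 107 and 107 CPM in control medium, 74.4 and 80.8 CPM in E8-cSGcm, 60.3 and 61.4 CPM in E8-cDRGcm, and 173 and 167 CPM in E15.5-mSGcm. It fell in E8-cDRGcm (log2 fold change -0.81, SE 0.0607, adjusted p = 5.24e-14) and rose in E15.5-mSGcm (0.67, SE 0.0575, adjusted p = 5.16e-12), and in E8-cSGcm it was -0.46 (adjusted p = 9.42e-08), under the fold limit. The mouse medium exceeded E8-cDRGcm by 1.48 on the log2 scale (SE 0.0611, adjusted p = 1.27e-21). Every library of E15.5-mSGcm was above, and every library of the chick media below, the control libraries.

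GRIA2 codes for the AMPA receptor subunit whose edited form blocks calcium passage through the channel. Its levels were 16.9 and 18.2 CPM in control medium, 18.5 and 15 CPM in E8-cSGcm, 17.9 and 14.7 CPM in E8-cDRGcm, and 23.0 and 23.7 CPM in E15.5-mSGcm. No comparison called it: the log2 fold change was -0.08 (adjusted p = 0.658) in E8-cSGcm, -0.11 (adjusted p = 0.445) in E8-cDRGcm and 0.41 (adjusted p = 0.00683) in E15.5-mSGcm. Counted per GRIA2 read, GRIA4 gave 6.32 and 5.86 in control medium, 4.02 and 5.38 in E8-cSGcm, 3.37 and 4.17 in E8-cDRGcm, and 7.53 and 7.04 in E15.5-mSGcm.

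NMDA receptors require the GluN1 subunit, coded by GRIN1, and GRIN3A codes for GluN3A, an unusual partner subunit that binds glycine. GRIN1 was at 62.0 CPM in both control libraries, 41.1 and 41.7 CPM in E8-cSGcm, 23.4 and 23.5 CPM in E8-cDRGcm, and 47.4 and 46.7 CPM in E15.5-mSGcm. It fell in E8-cDRGcm (log2 fold change -1.40, SE 0.0776, adjusted p = 1.19e-17), and in E8-cSGcm the difference of -0.58 (adjusted p = 3.73e-08) lay just under the fold limit. GRIN3A went the other way, at 28.6 and 30.2 CPM in control medium, 43.5 and 38.0 CPM in E8-cSGcm, 46.0 and 44.3 CPM in E8-cDRGcm, and 56.1 and 58.9 CPM in E15.5-mSGcm. It rose in E8-cDRGcm (0.62, adjusted p = 6.94e-08), a call lost without control replicate 1, where it was 0.58 (adjusted p = 1.22e-05), below the fold limit, and in E15.5-mSGcm (0.97, SE 0.0851, adjusted p = 9.15e-12). Per GRIN1 read, GRIN3A gave 0.462 and 0.487 in control medium, 1.06 and 0.911 in E8-cSGcm, 1.97 and 1.88 in E8-cDRGcm, and 1.18 and 1.26 in E15.5-mSGcm. GRIN2D, coding for a GluN2 subunit, was at 3.21 and 4.00 CPM in control medium and 4.33 and 5.05 CPM in E8-cDRGcm, with 2.30 and 2.51 CPM in E15.5-mSGcm, and was called only in E15.5-mSGcm against E8-cDRGcm (log2 fold change -0.96, adjusted p = 0.00266).

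**Figure D4:**
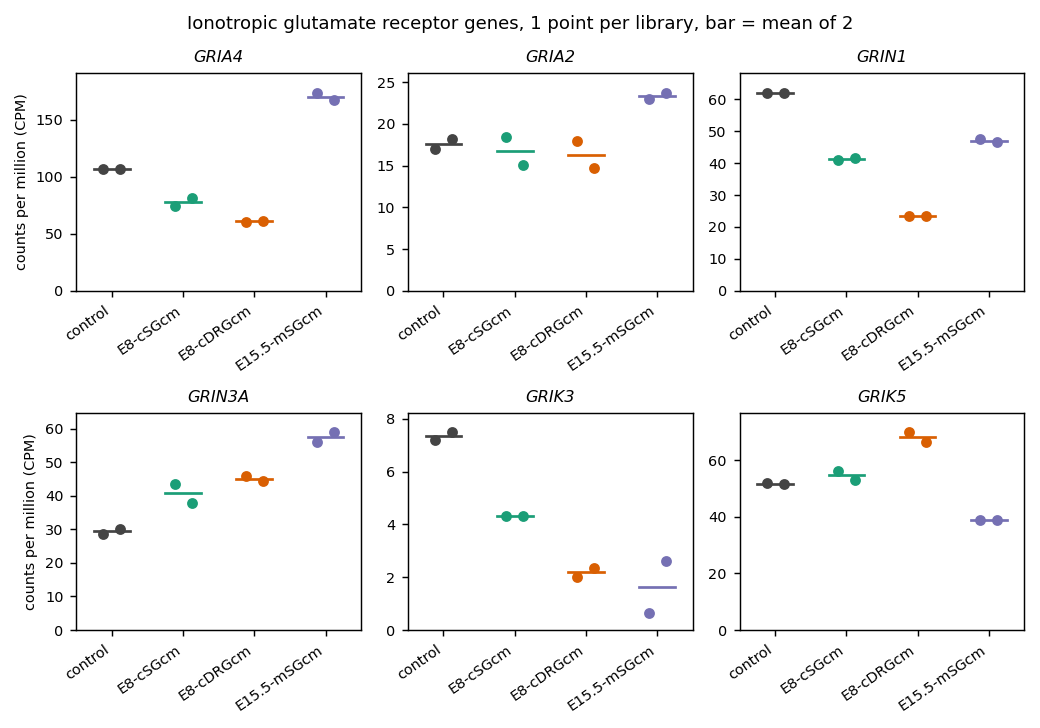
CPM of 6 ionotropic glutamate receptor genes in each library (points) with the mean of the 2 libraries (bar), for the 4 media. GRIA4 is highest in E15.5-mSGcm at 170.1 CPM and lowest in E8-cDRGcm at 60.8 CPM, GRIN1 is lowest in E8-cDRGcm at 23.5 CPM, and GRIK3 is below control in every conditioned medium.

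Of the kainate receptor genes, GRIK2 had the highest CPM and was called in no comparison, with 157 and 165 CPM in control medium and 147 to 167 CPM in the 3 conditioned media. GRIK5, coding for a high-affinity subunit that needs GRIK1 to GRIK3 partners to form a channel, stood at 51.8 and 51.7 CPM in control medium, 56.2 and 53.1 CPM in E8-cSGcm, 69.9 and 66.4 CPM in E8-cDRGcm and 39.0 CPM in both E15.5-mSGcm libraries. It was called only in E15.5-mSGcm against E8-cDRGcm (log2 fold change -0.80, adjusted p = 2.67e-11). GRIK3 was at 7.18 and 7.48 CPM in control medium, 4.32 and 4.33 CPM in E8-cSGcm, 2.02 and 2.34 CPM in E8-cDRGcm, and 0.639 and 2.62 CPM in E15.5-mSGcm. It fell in E8-cSGcm (log2 fold change -0.76, adjusted p = 0.00589), in E8-cDRGcm (-1.75, adjusted p = 2.1e-07) and in E15.5-mSGcm (-2.12, adjusted p = 4.04e-07). No conditioned library overlapped with control, while the E15.5-mSGcm libraries stood far apart from each other, and DESeq2 did not call the E8-cSGcm difference (log2 fold change -0.77, adjusted p = 0.131).

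GRID1, coding for an orphan glutamate receptor of the delta class that organises synapses, was at 8.47 and 9.12 CPM in control medium, 9.61 and 9.58 CPM in E8-cSGcm, 9.26 and 9.21 CPM in E8-cDRGcm, and 6.52 and 4.79 CPM in E15.5-mSGcm, where it fell (log2 fold change -0.65, adjusted p = 0.0052). That call was lost without E15.5-mSGcm replicate 2 (-0.44, adjusted p = 0.162).

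Metabotropic glutamate receptors were low. GRM4 (Gi coupled) was at 0.305 and 0.0656 CPM in control medium, 0.400 and 1.12 CPM in E8-cSGcm, 0.896 and 1.02 CPM in E8-cDRGcm, and 0.256 and 0.114 CPM in E15.5-mSGcm. It rose in both chick media (log2 fold change 2.08, adjusted p = 0.0249, and 2.38, adjusted p = 0.00422), but without control replicate 2 the values were 1.32 (adjusted p = 0.287) and 1.62 (adjusted p = 0.107). Without E8-cSGcm replicate 2 the first was 1.13 (adjusted p = 0.486). Control libraries held at most 4 GRM4 reads. Only in E8-cDRGcm did both libraries exceed the filter level, so the GRM4 tests are not independent of the filter.

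GRM2 (Gi coupled) was at 2.37 and 2.23 CPM in control medium, 2.40 and 1.68 CPM in E8-cSGcm, 1.72 and 1.68 CPM in E8-cDRGcm, and 0.511 and 0.798 CPM in E15.5-mSGcm, where it fell (log2 fold change -1.78, adjusted p = 0.00125). GRM8 (Gi coupled) was at 1.15 and 0.656, 1.68 and 1.54, 1.42 and 1.39, and 2.05 and 2.05 CPM in the same order. It rose in E15.5-mSGcm (1.20, adjusted p = 0.0193), a call lost without control replicate 2 (0.83, adjusted p = 0.19) and without E15.5-mSGcm replicate 1 (1.20, adjusted p = 0.0705) or 2 (1.19, adjusted p = 0.0933).

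GABA-A receptors are pentameric chloride channels that need α and β subunits. GABRB2, a β subunit gene, was at 59.8 and 55.5 CPM in control medium, 80.7 and 80.5 CPM in E8-cSGcm, 65.8 and 68.7 CPM in E8-cDRGcm, and 69.6 and 67.2 CPM in E15.5-mSGcm. All conditioned libraries were above the control libraries, but no comparison passed the fold limit.

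The calls in this family were in low genes. GABRA2, coding for an α subunit, was at 1.68 and 1.58 CPM in control medium, 3.92 and 2.45 CPM in E8-cSGcm, 5.00 and 4.31 CPM in E8-cDRGcm, and 1.15 and 1.03 CPM in E15.5-mSGcm. It rose in E8-cDRGcm (log2 fold change 1.51, adjusted p = 1.33e-05) and in E8-cSGcm (0.95, adjusted p = 0.011), where the call was lost without control replicate 2 (0.90, adjusted p = 0.0811) and without E8-cSGcm replicate 1 (0.59, adjusted p = 0.244). GABRA4, another α subunit gene, was at 1.22 and 1.38, 1.76 and 2.03, 1.12 and 0.878, and 2.69 and 3.42 CPM in the 4 media. It rose in E15.5-mSGcm (1.23, adjusted p = 0.00381), which did not hold without E15.5-mSGcm replicate 2 (1.03, adjusted p = 0.0883). GABRB1, another β subunit gene, was at 2.06 and 0.985 CPM in control medium, 1.28 and 0.769 CPM in E8-cSGcm, 0.821 and 0.878 CPM in E8-cDRGcm, and 1.79 and 3.76 CPM in E15.5-mSGcm, with libraries of the mouse medium overlapping control. It was called in no comparison with control.

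GABBR1, the obligate partner of GABBR2, was listed at 0, which does not show that its transcript was absent. GABBR2, coding for the G protein coupling subunit of the GABA-B receptor, was at 2.90 and 3.48 CPM in control medium, 4.08 and 3.99 CPM in E8-cSGcm, 4.78 and 5.56 CPM in E8-cDRGcm, and 2.30 and 1.94 CPM in E15.5-mSGcm. It rose in E8-cDRGcm (log2 fold change 0.69, adjusted p = 0.00768), which did not hold without control replicate 1 (0.57, adjusted p = 0.0774) or without E8-cDRGcm replicate 2 (0.58, adjusted p = 0.092). GLRB, coding for the glycine receptor β subunit that anchors to gephyrin, was at 3.89 and 4.92, 5.44 and 5.59, 7.39 and 7.53, and 4.22 and 6.27 CPM in the 4 media and rose in E8-cDRGcm (0.75, adjusted p = 0.00123).

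Among muscarinic acetylcholine receptors, CHRM3 (Gq coupled) was the most abundant, at 49.6 and 59.6 CPM in control medium and 55.2 to 68.2 CPM in the 3 conditioned media, and was called nowhere. CHRM2 (Gi coupled) was at 20.2 and 23.4 CPM in control medium, 16.4 and 16.6 CPM in E8-cSGcm, 21.7 and 20.4 CPM in E8-cDRGcm, and 10.9 and 10.6 CPM in E15.5-mSGcm, where it fell (log2 fold change -1.02, SE 0.129, adjusted p = 4.14e-08). CHRM4 (Gi coupled) was at 1.22 and 0.525 CPM in control medium, 3.20 and 2.66 CPM in E8-cSGcm, 1.94 and 3.44 CPM in E8-cDRGcm, and 0.767 and 0.912 CPM in E15.5-mSGcm. It rose in E8-cSGcm (1.77, adjusted p = 0.000262) and in E8-cDRGcm (1.65, adjusted p = 0.00032) and was -0.01 (adjusted p = 0.991) in E15.5-mSGcm. By GENCODE, exons of CHRM4 overlap those of MDK on the opposite strand, so with the strand option of the counting not given, reads of CHRM4 and MDK may not be told apart there. CHRM1 (Gq coupled) was at 0.992 and 1.31, 0.400 and 0.280, 0.373 and 0, and 0.128 and 0.912 CPM in the 4 media. It exceeded the filter level in both libraries of control medium only, so its tests are not independent of the filter. Its fall in E8-cSGcm (-1.76, adjusted p = 0.0291) was lost when any 1 of the 4 libraries of that comparison was left out (-1.51 to -2.01, adjusted p 0.0553 to 0.197), and its fall in E8-cDRGcm (-2.59, adjusted p = 0.00255) without E8-cDRGcm replicate 2 (-1.61, adjusted p = 0.0856).

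Serotonin receptor genes were low, and the 3 that were called against control fell. HTR2A, a Gq-coupled receptor gene, was at 9.31 and 10.6 CPM in control medium, 6.56 and 5.38 CPM in E8-cSGcm, 3.14 and 3.44 CPM in E8-cDRGcm, and 4.35 and 5.70 CPM in E15.5-mSGcm. It fell in E8-cSGcm (log2 fold change -0.75, adjusted p = 0.000757), in E8-cDRGcm (-1.60, adjusted p = 5.92e-09) and in E15.5-mSGcm (-0.98, adjusted p = 0.000119), and none of these groups overlapped with control. HTR1E, a Gi-coupled receptor gene, was counted at 29 and 47 reads in control medium, 8 and 13 in E8-cSGcm, 1 and 1 in E8-cDRGcm, and 29 and 19 in E15.5-mSGcm. It fell in E8-cSGcm (-1.76, adjusted p = 0.000394) and in E8-cDRGcm (adjusted p = 1.01e-08), where the ratio of control to E8-cDRGcm was 36.3 (95% exact counting interval 9.71 to 305.2), and was 0.12 (adjusted p = 0.809) in E15.5-mSGcm. HTR6, a Gs-coupled receptor gene, was at 6.11 CPM in both control libraries, 6.24 and 6.29 CPM in E8-cSGcm, 3.51 and 4.24 CPM in E8-cDRGcm, and 3.20 and 3.53 CPM in E15.5-mSGcm. It fell in E15.5-mSGcm (-0.85, adjusted p = 0.00279) and in E8-cDRGcm (-0.65, adjusted p = 0.00531), the latter lost without E8-cDRGcm replicate 1 (-0.53, adjusted p = 0.0835).

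**Figure D5:**
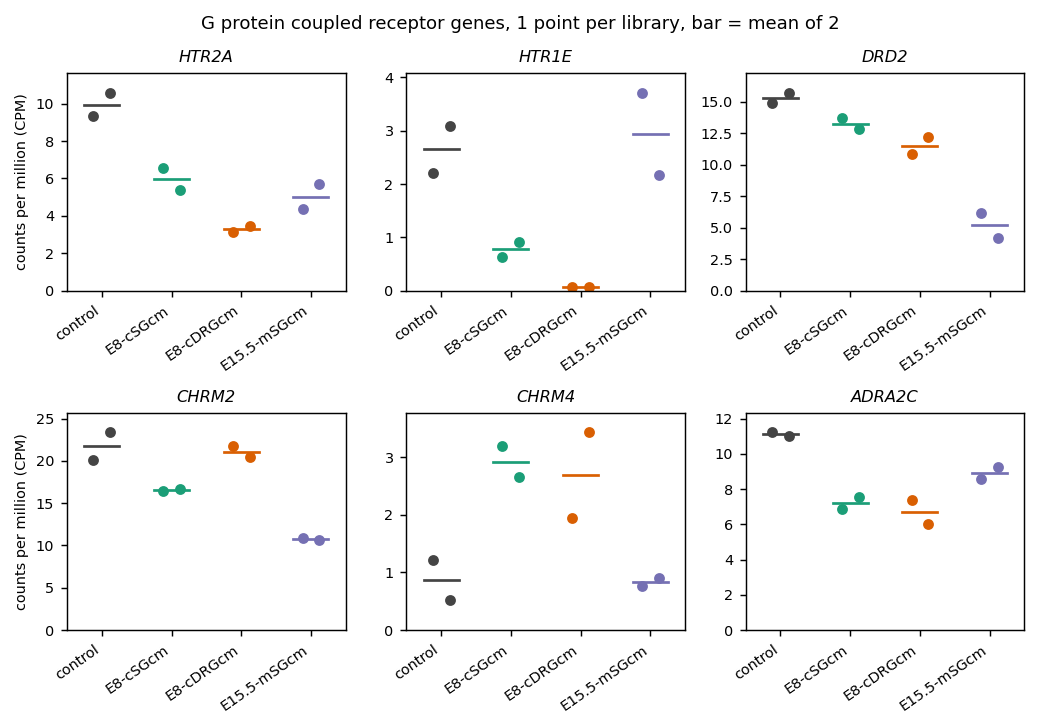
CPM of 6 G protein coupled receptor genes in each library (points) with the mean of the 2 libraries (bar), for the 4 media. HTR2A is below control in every conditioned medium, HTR1E is near 0 in E8-cDRGcm only, DRD2 and CHRM2 are lowest in E15.5-mSGcm, and CHRM4 is higher in the chick media.

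DRD2, coding for the Gi-coupled dopamine D2 receptor and the 1 dopamine receptor gene with counts, was at 14.9 and 15.7 CPM in control medium, 13.7 and 12.8 CPM in E8-cSGcm, 10.8 and 12.2 CPM in E8-cDRGcm, and 6.14 and 4.22 CPM in E15.5-mSGcm. It fell in E15.5-mSGcm (log2 fold change -1.58, SE 0.171, adjusted p = 1.65e-09), and its values of -0.21 (adjusted p = 0.212) in E8-cSGcm and -0.41 (adjusted p = 0.00802) in E8-cDRGcm were not called. E15.5-mSGcm was also lower than E8-cSGcm (-1.36, adjusted p = 3.95e-08) and than E8-cDRGcm (-1.17, adjusted p = 9.66e-07), with no overlap between groups.

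Adrenergic receptors bind noradrenaline, the transmitter of mature sympathetic neurons. ADRA2C, a Gi-coupled α2 receptor gene, was at 11.2 and 11.0 CPM in control medium, 6.88 and 7.55 CPM in E8-cSGcm, 7.39 and 6.00 CPM in E8-cDRGcm, and 8.57 and 9.23 CPM in E15.5-mSGcm. It fell in E8-cDRGcm (log2 fold change -0.73, adjusted p = 0.000126) and in E8-cSGcm (-0.62, adjusted p = 0.00156), the latter under the fold limit without E8-cSGcm replicate 1 (-0.55, adjusted p = 0.0186). ADRA2A, another α2 receptor gene, was at 3.13 and 2.89, 2.88 and 2.38, 2.76 and 2.34, and 1.79 and 1.14 CPM in the 4 media and fell in E15.5-mSGcm (-1.05, adjusted p = 0.0126), which did not hold without control replicate 1 (-1.0, adjusted p = 0.0531) or E15.5-mSGcm replicate 2 (-0.75, adjusted p = 0.2). ADRA1D, a Gq-coupled α1 receptor gene, was at 0.305 and 0.328 CPM in control medium, 0.160 and 0.350 CPM in E8-cSGcm, 0.0747 and 0.293 CPM in E8-cDRGcm, and 2.30 and 2.05 CPM in E15.5-mSGcm, where it rose (2.74, SE 0.536, adjusted p = 8.93e-05) from 4 and 5 reads to 18 and 18. It exceeded the filter level in both libraries of E15.5-mSGcm only, so this test is not independent of the filter.

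Between the conditioned media, E8-cDRGcm differed from E8-cSGcm in 8 of 43 members (1 higher, 7 lower, 18.6% against 7.49% of all genes), E15.5-mSGcm from E8-cSGcm in 16 (5 higher, 11 lower, 37.2% against 22.3%) and E15.5-mSGcm from E8-cDRGcm in 22 (10 higher, 12 lower, 51.2% against 26.2%). By direction, 2.62% of all genes were higher and 4.87% lower in the first comparison, 10.2% and 12.1% in the second, and 13.1% and 13.1% in the third. Libraries of the 2 groups did not overlap in 9 members higher and 19 lower in the first comparison, 16 and 22 in the second, and 18 and 19 in the third, beside 62.3%, 73.5% and 74.9% of all tested genes. CHRNA3 was higher in E15.5-mSGcm than in E8-cSGcm (log2 fold change 0.98, adjusted p = 1.13e-18) and than in E8-cDRGcm (1.59, adjusted p = 1.36e-24). GRIN1 was lower in E8-cDRGcm than in E8-cSGcm (-0.82, adjusted p = 6.43e-10). In the first of these comparisons the number of members lower was 4 without E8-cDRGcm replicate 1 and the number higher 2 without E8-cSGcm replicate 1, and in the second the number higher was 9 without E8-cSGcm replicate 1.

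Genes of receptor assembly, trafficking and anchoring were read from a list of 64 genes, of which 48 were tested and 8 were at 0. In E8-cSGcm 8 rose and 3 fell, in E8-cDRGcm 12 rose and 5 fell, and in E15.5-mSGcm 6 rose and 4 fell, where 8.59%, 20.7% and 13.9% of all tested genes were called in either direction. CACNG4, an auxiliary subunit of AMPA receptors, was at 81.2 and 75.0 CPM in control medium, 23.5 and 24.2 CPM in E8-cSGcm, 11.0 and 11.6 CPM in E8-cDRGcm, and 53.2 and 56.9 CPM in E15.5-mSGcm. It fell in E8-cSGcm (log2 fold change -1.71, adjusted p = 2.41e-19) and in E8-cDRGcm (-2.79, adjusted p = 8.46e-25), and in E15.5-mSGcm it was -0.50 (adjusted p = 1.2e-06), under the fold limit. GRIP1, a scaffold that binds AMPA receptors, fell in E8-cSGcm (-1.23, adjusted p = 1.42e-12) and in E8-cDRGcm (-1.91, adjusted p = 1.3e-17) and was 0.20 (adjusted p = 0.0813) in E15.5-mSGcm. LYNX1, a membrane-anchored modulator of nicotinic receptors, fell in E8-cDRGcm (-1.97, adjusted p = 3.49e-05), with -0.74 (adjusted p = 0.0696) in E8-cSGcm and -0.24 (adjusted p = 0.608) in E15.5-mSGcm. GABARAPL1, of the family of GABA-A receptor trafficking and autophagy proteins, rose in E8-cSGcm (1.60, adjusted p = 1.17e-07), in E8-cDRGcm (2.08, adjusted p = 2.27e-11) and in E15.5-mSGcm (0.83, adjusted p = 0.00895). OLFM2, found with AMPA receptors, rose in E8-cSGcm (1.64, adjusted p = 6.77e-05) and in E8-cDRGcm (1.94, adjusted p = 1.03e-06), and in E15.5-mSGcm it was -0.85 (adjusted p = 0.202).

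LYPD1, a nicotinic receptor modulator of the same fold as LYNX1, rose in E8-cSGcm (log2 fold change 1.04, adjusted p = 6.92e-05), in E8-cDRGcm (1.54, adjusted p = 7.12e-09) and in E15.5-mSGcm (1.52, adjusted p = 1.19e-07). PLCL1, which binds GABA-A receptors, also rose in all 3 media, by 0.60 (adjusted p = 0.000225), 0.77 (adjusted p = 1.87e-06) and 1.53 (adjusted p = 1.26e-12) in the same order. The scaffold genes SHANK2 and DLG3 fell in E15.5-mSGcm (-1.06, adjusted p = 0.000239, and -0.74, adjusted p = 1.55e-05). In E8-cSGcm and E8-cDRGcm SHANK2 was -0.25 (adjusted p = 0.307) and -0.15 (adjusted p = 0.509), and DLG3 was -0.19 (adjusted p = 0.198) and -0.13 (adjusted p = 0.339).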

How the data were processed

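RNA-seq counts of 8 libraries were analysed, 2 per group, with each library assigned by its column name. The authors prepared stranded total RNA libraries, demultiplexed and trimmed the reads (bcl2fastq 2.17.1.14, cutadapt 1.9.1), mapped them with TopHat2 2.1.0 and counted them per Ensembl gene with HTSeq 0.11.3, and the deposited counts carry no normalization. The labels name hg38 as the build and the study's methods hg19; the annotation release and strand option are not given in the sources used here. Symbols, biotypes and exonic lengths came from GENCODE mapped to GRCh37, and promoters and positions from RefSeq tables on GRCh38.p14, which hold 76 of the 103 members.

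The quasi-likelihood test of edgeR 4.0.16 in R 4.3.3 was run on TMM-scaled counts in 1 model of 4 groups, with a robust fit and genes filtered by filterByExpr, with Benjamini-Hochberg adjustment over 16680 genes; the steps were tested on simulated data. Named genes are members called in any of 6 comparisons, the 10 highest per kb, the highest of each family, and GRIA2, except some that are not reported here; accessory genes are the 2 highest and 2 lowest called per medium. The members and lists were chosen with earlier results of these data known. Alternatives were DESeq2 1.42.0, RLE size factors, 2 count filters, fits of only the 4 libraries compared, no limit on fold change, a replicate block, thinning to 7930765 counts and leaving out each library. Replicate libraries of a group differed beyond sampling noise (chi-square per gene 1.78 to 3.64).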

Additional observations from a re-analysis of the deposited data

Results flagged for a closer look

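The effect of conditioned medium on GRIA4 differed between the mouse sympathetic and the chick dorsal root ganglion medium: against control medium the log2 fold change was 0.67 (SE 0.0575) in E15.5-mSGcm and -0.81 (SE 0.0607) in E8-cDRGcm, and the test of the difference itself gave 1.48 (SE 0.0611, edgeR adjusted p = 1.27e-21), with 2 of 2 libraries of each medium on its own side of both control libraries. The 2 effects share the control libraries. GRIA4 was flagged because it was called up in a medium and down in another, with the difference also called. The values above therefore repeat that rule and are no separate support. Of all tested genes, 68.3% did not overlap with control in E15.5-mSGcm and 73.5% in E8-cDRGcm.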

How the results depend on the processing

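No call of a receptor gene turned its direction under any alternative. Of 86 calls, 60 were kept by DESeq2, 21 were lost and 5 had no adjusted p there; 84 were kept with RLE size factors, 83 with a filter of 1 count in total, 78 of 81 in fits of only the 4 libraries compared, and 73 of 83 after thinning. DESeq2 called 1 member up in E8-cSGcm and 3 in E15.5-mSGcm against control, and 3 down in E8-cDRGcm against E8-cSGcm. With 10 counts in every library, which tests 30 members, 0 rose and 3 fell in E8-cSGcm, 3 rose in E8-cDRGcm, and 6 were lower in E15.5-mSGcm than in E8-cSGcm and 7 lower than in E8-cDRGcm. By adjusted p alone, 8 rose and 10 fell in E8-cSGcm, 12 rose in E8-cDRGcm, 3 were higher and 14 lower in E8-cDRGcm than in E8-cSGcm, and 9 higher and 17 lower in E15.5-mSGcm than in E8-cSGcm; accessory genes numbered 19 up and 9 down in E8-cSGcm, 24 and 12 in E8-cDRGcm, and 14 and 14 in E15.5-mSGcm. After thinning, 2 members were higher in E8-cDRGcm than in E8-cSGcm. Leaving out 1 library gave 2 to 5 members up and 4 to 7 down in E8-cSGcm, 5 to 9 and 9 to 11 in E8-cDRGcm, 3 to 6 and 7 to 8 in E15.5-mSGcm, 1 to 2 and 4 to 7 in E8-cDRGcm against E8-cSGcm, 4 to 9 and 8 to 12 in E15.5-mSGcm against E8-cSGcm, and 7 to 12 and 9 to 12 in E15.5-mSGcm against E8-cDRGcm; for accessory genes it gave 6 to 8 and 3 to 4, 9 to 12 and 5 to 6, and 4 to 6 and 3 to 5 in the 3 media. A group left with 1 library is assumed to vary like the others. GRIA2, called in no comparison, changed sign with 1 library left out, ranging from -0.227 (without E8-cSGcm replicate 1) to 0.0695 (without E8-cSGcm replicate 2) in E8-cSGcm, from -0.265 (without E8-cDRGcm replicate 1) to 0.0264 (without E8-cDRGcm replicate 2) in E8-cDRGcm, and from -0.182 (without E8-cSGcm replicate 2) to 0.116 (without E8-cSGcm replicate 1) between these media. The cause of these moves was not tested. Deviations of same-numbered libraries were nearly uncorrelated across tested genes (r of -0.04 to 0.04). Counting noise weakens such correlations, so whether these libraries shared a culture or preparation is not known. With the replicate block 85 calls were kept, and 6 rather than 7 members were lower in E8-cDRGcm than in E8-cSGcm. With 2 libraries per group and members near the floor, the low genes carry the least certain calls.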

Other observations

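Members below the filter on low counts are given as reads, chosen after their values were seen. GRIN2C, coding for an NMDA receptor subunit, was counted at 2 and 7 reads in control medium, 2 and 0 in E8-cSGcm, 3 and 1 in E8-cDRGcm, and 5 and 16 in E15.5-mSGcm, so that 1 library of the mouse medium holds 16 of its 36 reads. CHRNA7, coding for the homomeric α7 nicotinic receptor, had 1 to 7 reads per library, and CHRNA4, the usual partner of CHRNB2 in the brain, 0 to 5. GRIA1, coding for an AMPA receptor subunit, had 12 reads over the 8 libraries.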
